A study of Sus scrofa with 3 samples.

Results

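The miR-191 and miR-425 cluster is a pair of neighbouring microRNA (miRNA) hairpins that was followed here in pig liver at 3 ages. Its members were the lines of the 3 deposited tables, among hairpins known from pig or other mammals, whose miRNA name without species prefix and copy number was miR-191 or miR-425. That rule found 15 table lines of 3456, which gave 2 hairpins of 677 and 4 mature arms of 976 mature miRNAs with a read. The livers came from male pigs of the Jinhua breed at embryonic day 90 (E90), postnatal day 30 (P30d) and postnatal year 7 (P7y). No treatment was named. The labels name 3 pigs per stage, there was 1 library per stage, and whether RNA was pooled is not stated. There were thus no replicates. Every comparison sets single libraries against each other, and no difference has a replicate check.

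A miRNA hairpin is cut from a longer transcript by Drosha and then by Dicer, which leaves a short duplex of a 5p and a 3p strand. An Argonaute protein keeps one strand, called the guide, and pairs with messenger RNAs mainly through the seed, the stretch from base 2 to base 8. In most hairpins one arm gives nearly all of the stable product. miR-191 and miR-425 are processed from the transcript of DALRD3 in mammals, and both are widely used as reference miRNAs in quantitative PCR. miR-191 is an abundant miRNA of many tissues and has been studied in liver cancer, and miR-425-5p is known for repressing the messenger RNA of atrial natriuretic peptide.

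In the deposited coordinates on Sscrofa10.2, the miR-191 hairpin lay at chr13:34898588-34898688 and the miR-425 hairpin at chr13:34898106-34898192, both on the minus strand. The hairpins were 101 and 87 nt long and 395 bases apart, with miR-191 upstream in the direction of transcription. Both miRNA genes lay inside the DALRD3 gene in the RefSeq gene table of Sscrofa11.1, a later build whose coordinates were not used. Whether they are intronic was not analysed here. The deposited folding energies were -46.7 kcal per mol for miR-191 and -36.2 for miR-425. Both hairpins are shown as the tables give them, 5′ to 3′, because the results turn on which arm was read. Capitals mark the representative reads of the 5p and 3p arms at E90.
miR-191 hairpin: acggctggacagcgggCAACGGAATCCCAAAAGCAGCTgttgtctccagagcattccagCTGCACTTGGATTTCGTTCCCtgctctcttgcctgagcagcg
miR-425 hairpin: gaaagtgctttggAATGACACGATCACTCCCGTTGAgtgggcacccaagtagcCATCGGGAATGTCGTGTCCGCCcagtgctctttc

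The representative read of an arm is the read that the table prints for it, defined in the file headers as the one of highest mapped score. The reads that differ in their ends are given next, with the seed in capitals. The first 4 show that the 4 arms carried 4 different seeds at E90. The others show the ends that differed at P30d or P7y.
miR-191-5p, all 3 libraries: cAACGGAAtcccaaaagcagct
miR-191-3p, E90: cTGCACTTggatttcgttccc
miR-425-5p, E90: aATGACACgatcactcccgttga
miR-425-3p, E90 and P30d: cATCGGGAatgtcgtgtccgcc
miR-191-3p, P30d and P7y: gCTGCACTtggatttcgttc
miR-425-5p, P30d: aATGACACgatcactcccgttg
miR-425-5p, P7y: aATGACACgatcactcccgttgagt
miR-425-3p, P7y: cATCGGGAatgtcgtgtccgcct

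Table totals were 9406525 reads (E90), 3775157 (P30d) and 9935073 (P7y), and known hairpins took up 98.3%, 96.0% and 99.9% of them. Levels are reads per 1000000 of those miRNA reads (CPM), and a count of 0 would allow up to 0.325 CPM (E90), 0.828 (P30d) and 0.302 (P7y). Intervals in brackets are 95% and cover counting error only, and since PCR copies molecules the reads are not independent of each other. miR-122-5p, the defining hepatocyte miRNA, was the most abundant miRNA at E90 and P30d and the eighth at P7y, with 128017, 213802 and 37870 CPM. Of the lists of markers of other cell types, the 5 leukocyte hairpins summed to 1036.5 CPM (E90), 4597 (P30d) and 1116 (P7y), and all 5 were read in each library. The 3 erythroid hairpins summed to 7242, 3034 and 1821 CPM and the 4 mesenchymal ones to 58315, 64551 and 113142. Of these, miR-143 had 51253, 17820 and 102750 CPM, lowest at P30d, while miR-199a had 5359, 44290 and 4578, highest at P30d. Striated muscle markers stayed between 16.7 and 42.2 CPM, with miR-206 at 0 at P30d and P7y, and neural markers between 6.38 and 18.04. In bulk liver, fewer cells of a type and less miRNA per cell cannot be told apart.

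miR-191-5p was the abundant member of the cluster at every age. It had 169804 reads (E90), 101060 (P30d) and 109464 (P7y). These were 18369.9 CPM [18283, 18457], 27894 [27725, 28064] and 11034 [10970, 11100], or 1.84%, 2.79% and 1.10% of all miRNA reads. It ranked 13th, 8th and 16th among the miRNAs of its library. The P30d library was highest. By CPM the P7y library was lowest and no counting intervals overlapped, but the order of E90 and P7y turned with TMM and DESeq2 scaling, which set library factors from the bulk of miRNAs and not from the total. miR-191-3p, the strand that pairs with it in the duplex, was the rarest arm of the cluster, with 308, 66 and 178 reads. Its levels were 33.3 CPM [29.7, 37.3] in the E90 library, 18.2 [14.1, 23.2] in the P30d library and 17.9 [15.4, 20.8] in the P7y library, so that by CPM the postnatal libraries did not differ beyond counting error.

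Both arms of miR-425 were of middling abundance. By CPM both were highest at P30d and lowest at P7y, but miR-425-5p varied more than miR-425-3p. miR-425-5p had 1889 reads (E90), 2391 (P30d) and 363 (P7y), which were 204 CPM [195, 214], 660.0 [633.8, 686.9] and 36.6 [32.9, 40.6]. Its rank went from 136th to 85th to 176th. miR-425-3p had 1972, 1046 and 1144 reads, or 213 CPM [204, 223], 289 [271, 307] and 115 [109, 122]. At E90 the intervals of the arms overlapped. At P30d the 5p arm stood above the 3p arm, and at P7y it stood below it.

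**Figure D1:**
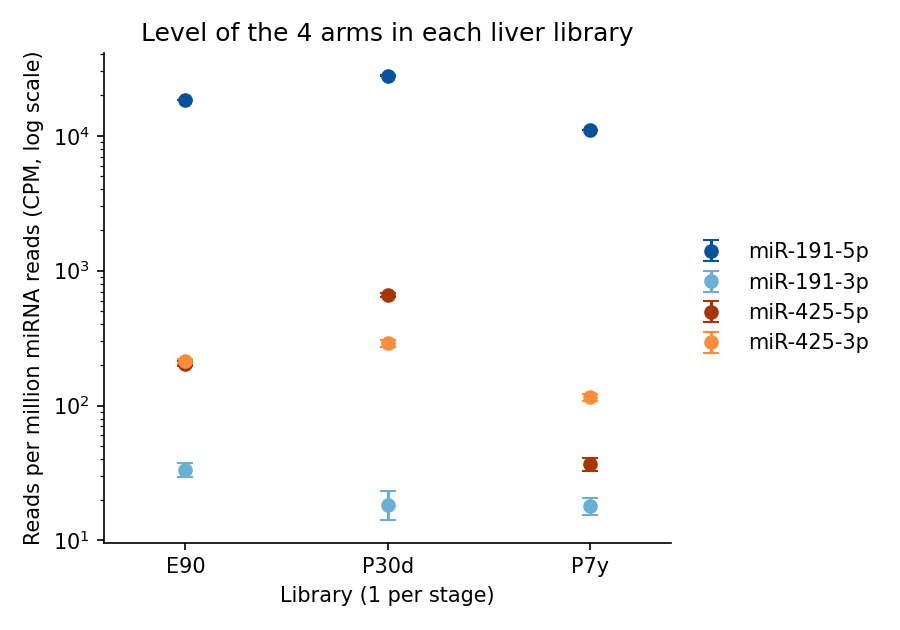
Level of each arm in reads per 1000000 miRNA reads (log axis) in the 3 libraries, 1 per stage; bars are 95% counting intervals. miR-191-5p sits between 11034 and 27894 CPM, while miR-425-5p runs from 660.0 CPM at P30d to 36.6 at P7y and crosses miR-425-3p.

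Each pair of libraries was compared by the log2 of CPM in the later over CPM in the earlier library, for the 324 mature miRNAs whose mean reached 10 CPM, as it did for all 4 arms. To be called, a miRNA had to differ at least 2-fold, a log2 ratio of 1 in size, with an interval off 0. From E90 to P30d, 33.3% of all miRNAs were called higher and 35.5% lower. By CPM of all reads 1 of the 4 arms was called, miR-425-5p, which was 3.23-fold higher (log2 1.69 [1.60, 1.78]). miR-191-5p had a log2 ratio of 0.60 [0.59, 0.61], miR-425-3p of 0.44 [0.33, 0.55] and miR-191-3p of -0.87 [-1.28, -0.48]. The sign for miR-425-3p depended on the reads counted, and reads without a mismatch alone gave -0.23. Among those reads miR-191-3p was called lower, at -1.06 [-1.49, -0.64], and copies of the representative read gave -2.35 [-3.25, -1.56]. That last value compares unlike reads. The representative read of miR-191-3p began at position 60 of the hairpin at E90 and at position 59 at P30d.

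From P30d to P7y, 13.6% of all miRNAs were called higher and 55.9% lower, and the median log2 ratio of all was -1.36. TMM factors called 90 miRNAs higher and 109 lower, against 44 and 181 by CPM. In this pair 3 of the 4 arms were called lower. miR-425-5p was 18.04-fold lower (log2 -4.17 [-4.34, -4.01]), or -2.82 relative to the median of all, and 7.72% of miRNAs had a lower ratio. miR-191-5p was 2.53-fold lower (log2 -1.34 [-1.35, -1.33]) and miR-425-3p 2.504-fold lower (log2 -1.32 [-1.45, -1.20]), which lay 0.02 and 0.03 above the median of all miRNAs. miR-191-3p had a log2 ratio of -0.02 [-0.44, 0.41], or 1.33 relative to the median of all, and 72.2% of miRNAs had a lower ratio. With TMM factors it was called higher at 1.05 [0.64, 1.48], and with DESeq2 size factors at 1.03 [0.61, 1.46]. The calls of miR-191-5p and miR-425-3p were lost with scaling by TMM factors, at -0.26 and -0.25, and with DESeq2 size factors, at -0.29 and -0.28. These factors moved the median of all miRNAs by 1.07 and 1.05 on the log2 scale. They left miR-425-5p called lower at -3.10 and -3.13.

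Between the fetal and the oldest library, 12% of all miRNAs were called higher and 50.6% lower, with a median log2 ratio of -1.04. TMM factors called 90 higher and 108 lower, against 39 and 164 by CPM, and moved the median by 1.01. By CPM of all reads, miR-425-5p was the only one of the 4 arms called, 5.58-fold lower (log2 -2.48 [-2.65, -2.32], or -1.44 relative to the median), with -1.47 by TMM factors and -1.43 by DESeq2 size factors. miR-191-5p had a log2 ratio of -0.74 [-0.75, -0.72], miR-191-3p of -0.89 [-1.17, -0.62] and miR-425-3p of -0.89 [-0.99, -0.78]. Reads without a mismatch made calls of miR-191-3p, at -1.15, and of miR-425-3p, at -1.29. For all 3 the sign turned with TMM factors, to 0.27, 0.11 and 0.12, so no direction is given for them. The 3 comparisons share libraries and are not independent of each other.

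The arm switch of miR-425 can be read within a library, where the scaling between libraries does not enter. The 5p arm held 48.9% [47.3, 50.5] of the hairpin's reads in the E90 library, 69.6% [68.0, 71.1] in the P30d library and 24.1% [21.9, 26.3] in the P7y library (exact Clopper-Pearson intervals). For each 3p read there were 0.958, 2.29 and 0.317 reads of the 5p arm. Thus the arms were even at E90 within counting error, the 5p arm led at P30d and the 3p arm led at P7y. No intervals of the 3 shares overlapped.

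The odds of 5p over 3p reads of miR-425 were 2.39-fold higher at P30d than at E90 (log2 difference 1.25 [1.11, 1.40]). They were 7.20-fold lower at P7y than at P30d (log2 -2.85 [-3.05, -2.65]) and 3.02-fold lower at P7y than at E90 (log2 -1.59 [-1.79, -1.40]). All 3 differences passed the 2-fold threshold. So did many others. Of the 195 hairpins that reached 50 reads in every library, 55.9% passed it from E90 to P30d, 59.5% from P30d to P7y and 44.6% from E90 to P7y. The size of the difference was larger in 120, 61 and 77 of the 195 hairpins, in the same order. Over all 195 hairpins the 5p arms held 65.4% of reads (E90), 81.2% (P30d) and 60.5% (P7y), a pool that weights hairpins by their reads. Per hairpin the median log2 of 5p over 3p reads was 2.26, 1.97 and 1.69, highest at E90. The median log2 difference was -0.72 from E90 to P30d and 0.29 from P30d to P7y, opposite in sign to that of miR-425. These medians and the ranks by size include hairpins with hardly any reads on the minor arm, such as miR-100, miR-103 and miR-194a. For such hairpins the log2 depends on the value added to each arm, and so on read depth. They were not set apart, so the comparison with miR-425, which was well counted on both arms, is a description only.

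miR-425 was among the few hairpins whose leading arm differed between libraries. Each arm led in at least 1 library, with an interval off 50%, in 13 of the 195 hairpins (6.67%), miR-425 included. That share also counts hairpins with a strongly leading arm, such as miR-191. It was not computed for hairpins whose arms were near even at E90, as those of miR-425 were. In miR-335 and miR-582, chosen after their values were seen, the 5p arm also led at P30d and the 3p arm at P7y, and the 3p arm led at E90. The 5p share of miR-335 was 31.2% (E90), 79.0% (P30d) and 18.7% (P7y), and that of miR-582 was 41.3%, 86.8% and 12.6%. Others went the opposite way. In miR-130b (76.1%, 10.6% and 88.2%) and miR-455 (70.8%, 15.0% and 70.6%) the 3p arm led at P30d and the 5p arm in the other libraries. In miR-144, miR-194, miR-424, miR-574 and miR-6243 the 5p arm led at E90 and the 3p arm at P30d. For miR-194 this holds only for lines whose name has no letter. The copies miR-194a and miR-194b were counted apart here, and their 5p arm led in every library.

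miR-191 showed no change of leading arm. Its 5p arm held 99.82% of the reads (E90), 99.93% (P30d) and 99.84% (P7y), or 551, 1531 and 615 reads of the 5p arm for each 3p read. The odds were 2.76-fold higher at P30d than at E90 (log2 1.47 [1.09, 1.88]) and 2.48-fold lower at P7y than at P30d (log2 -1.31 [-1.75, -0.90]). Between E90 and P7y the log2 difference was 0.16 [-0.11, 0.43]. In both hairpins the P30d library had the highest share of 5p reads. The differences that involve that library rest on its 66 reads of miR-191-3p.

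**Figure D2:**
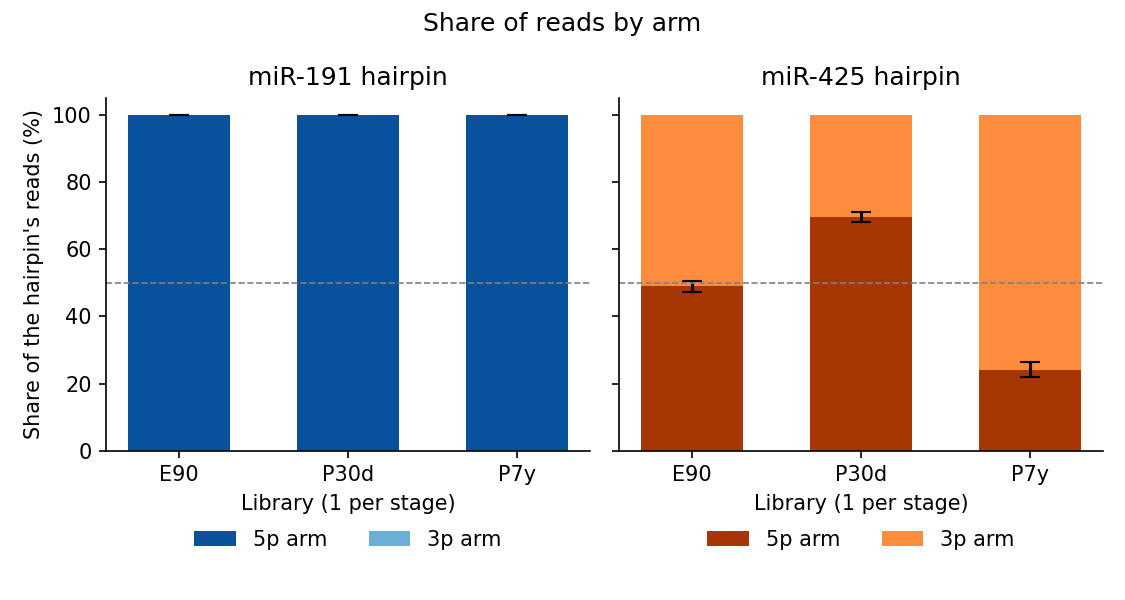
Share of each hairpin's reads on the 5p arm (dark) and the 3p arm (light) in the 3 libraries, 1 per stage; bars are 95% exact intervals of the 5p share and the dashed line is 50%. The 5p arm of miR-191 fills the bar at every age, while that of miR-425 runs from 48.9% to 69.6% to 24.1%.

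**Figure D3:**
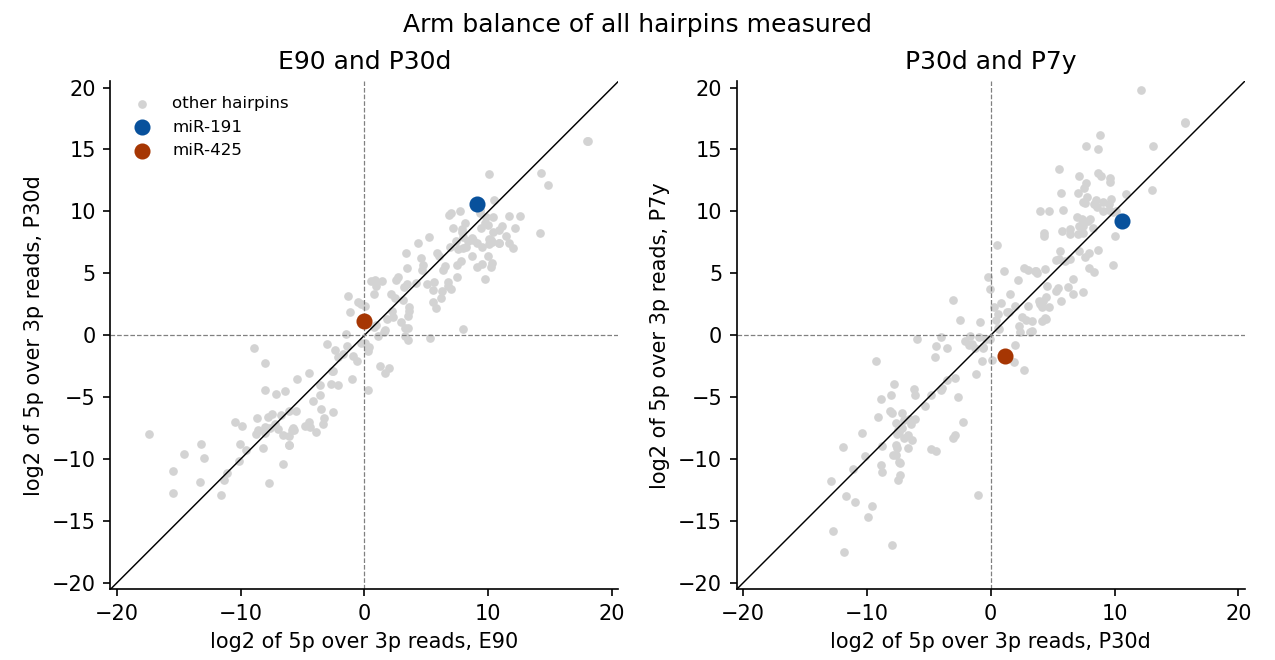
Log2 of 5p over 3p reads for the 195 hairpins that reached 50 reads in every library, E90 against P30d on the left and P30d against P7y on the right; the solid line marks equality and the dashed lines equal arms. miR-425 lies at -0.06 at E90, near the vertical dashed line, at 1.19 at P30d and at -1.65 at P7y, on the other side of equal arms, while miR-191 stays near the top right.

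The lead at E90 depended on which reads were counted, and those at P30d and P7y did not. With reads without a mismatch alone, the 5p share of miR-425 was 56.1% [54.3, 57.8] in the E90 library, 82.3% [80.8, 83.7] in the P30d library and 35.02% [31.9, 38.3] in the P7y library. With copies of the representative read alone it was 58.7% [55.8, 61.6], 81.9% [79.9, 83.8] and 19.5% [15.5, 23.9]. The representative read of miR-425-5p differed in length between the libraries, and that of miR-425-3p was longer at P7y. Such copies thus count unlike reads. In both settings the 5p arm led at E90 and at P30d, and the 3p arm led at P7y. The differences between libraries stayed past the 2-fold threshold in all 15 values of the alternatives tried on this hairpin. Apart from these read sets, the alternatives removed at most 1 read or added 1 to each arm, and so could barely move the balance.

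The share of reads with a mismatch to the hairpin set miR-425-3p apart from the other arms. It was 30.6% [28.5, 32.7] in the E90 library, 53.7% [50.7, 56.8] in the P30d library and 49.6% [46.6, 52.5] in the P7y library. Over the 245 miRNAs with at least 50 reads in each library the median was 12.2%, 14.7% and 17.5%, and 46, 28 and 33 of them had a higher share than miR-425-3p. miR-425-5p had 7.52%, 5.69% and 14.3%, and miR-191-5p 7.25%, 9.80% and 21.3%. The tables do not give the mismatches of single reads, but the representative read of miR-425-3p at P7y carried one in its last base. That read, in the list of sequences, differs from the hairpin as C23T, counted from the read's 5′ end with the base of the hairpin first. Its other bases are the representative read of E90 and P30d. A substituted base and a base added at the 3′ end cannot be told apart here. The P7y read made up 294 of 1144 reads, or 25.7%.

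**Figure D4:**
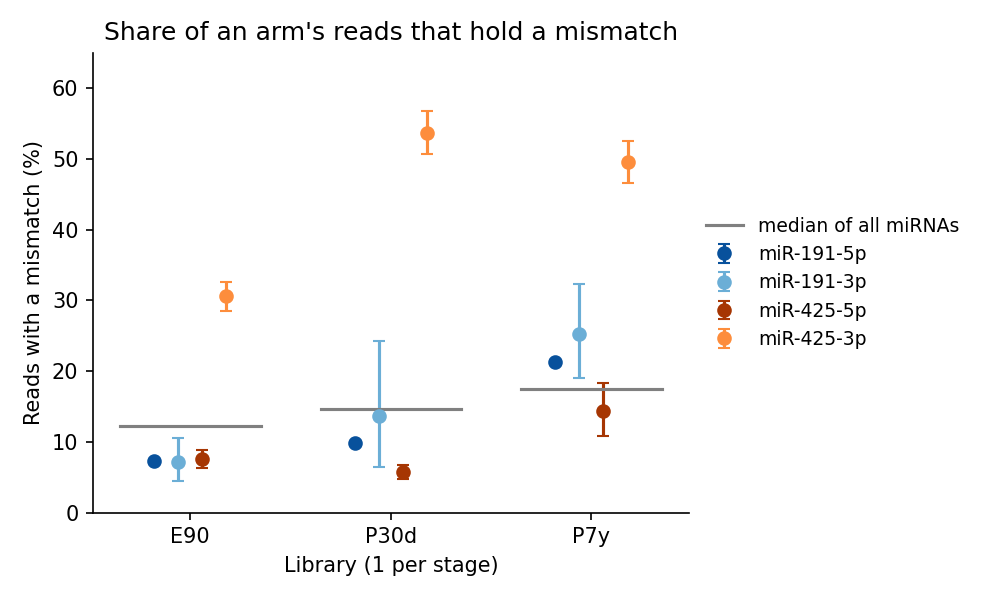
Share of each arm's reads that hold a mismatch to the hairpin, in percent, in the 3 libraries, 1 per stage; bars are 95% exact intervals and grey lines the median of 245 miRNAs. miR-425-3p lies at 30.6%, 53.7% and 49.6%, above the grey line in each library, and the other 3 arms lie between 5.69% and 25.3%.

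The ends of the reads differed between the arms. miR-191-5p had the same representative read of 22 nt in all 3 libraries, with 96952, 52615 and 57892 copies, or 57.1%, 52.1% and 52.9% of the arm's reads. This read is 1 base shorter at its 3′ end than the listed pig mature sequence of 23 nt. The representative read of miR-425-5p began at position 14 of the hairpin in every library, with the seed ATGACAC. It was 23 nt long at E90 (658 copies, 34.8% of the arm), 22 nt at P30d (1218 copies, 50.9%) and 25 nt at P7y (71 copies, 19.6%).

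In the representative reads of the 3p arms the first base differed, and with it the seed. Each such read is 1 of many in its arm, and the tables do not say whether it was the most frequent. The representative read of miR-425-3p began at position 54 of the hairpin in all 3 libraries, 1 base before the listed pig mature sequence, which begins at position 55. The seed of the read was therefore ATCGGGA and that of the listed sequence TCGGGAA. It had 463 copies at E90 and 268 at P30d, or 23.5% and 25.6% of the arm's reads. miR-191-3p began at position 60 at E90 (175 copies, seed TGCACTT) and at position 59 at P30d and P7y (14 and 35 copies, seed CTGCACT). Over the representative reads, CTGCACT was the only seed of the cluster that another measured miRNA carried, miR-1285-3p, which had 3972, 3460 and 2159 reads.

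Read length also differed between the libraries as a whole. Among the copies of representative reads of all miRNAs, reads of 23 nt made up 14.9% (E90), 21.2% (P30d) and 3.48% (P7y). Those of 22 nt made up 39.0%, 43.8% and 46.9%, and those of 21 nt 38.9%, 24.0% and 44.8%. The share of 23 nt, the length of the listed mature miR-425-5p, was highest at P30d and lowest at P7y, as was the level of miR-425-5p. The share of 22 nt, the length of its representative read at P30d, was highest at P7y. The part of read length in the level of miR-425-5p was not tested.

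The ratio of one hairpin to its neighbour is also free of the scaling between libraries. For each read of miR-425 there were 44.1 reads of miR-191 at E90 [42.7, 45.5], 29.4 [28.4, 30.4] at P30d, while P7y had 72.8 [69.1, 76.6]. The ratio was 2.47-fold higher at P7y than at P30d (log2 1.31 [1.22, 1.40]). The differences from E90 to P30d, -0.58 [-0.65, -0.51], and from E90 to P7y, 0.72 [0.64, 0.81], stayed under the 2-fold threshold.

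Split by arm, the ratio passed the 2-fold threshold against miR-425-5p in all 3 pairs of libraries and against miR-425-3p in none. The ratio of miR-191-5p to miR-425-5p was 89.9 (E90), 42.3 (P30d) and 301.6 (P7y). It was 7.13-fold higher at P7y than at P30d (log2 2.83 [2.67, 2.999]). The ratio was 2.13-fold lower at P30d than at E90 (log2 -1.09 [-1.18, -1.0003]) and 3.35-fold higher at P7y than at E90 (log2 1.75 [1.58, 1.91]). By contrast, the ratio of miR-191-5p to miR-425-3p was 86.1, 96.6 and 95.7. Its log2 differences were 0.17 [0.06, 0.28], -0.01 [-0.14, 0.11] and 0.15 [0.05, 0.26], and none passed the threshold. Among reads without a mismatch they were 0.71, -0.34 and 0.38, also under it.

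**Figure D5:**
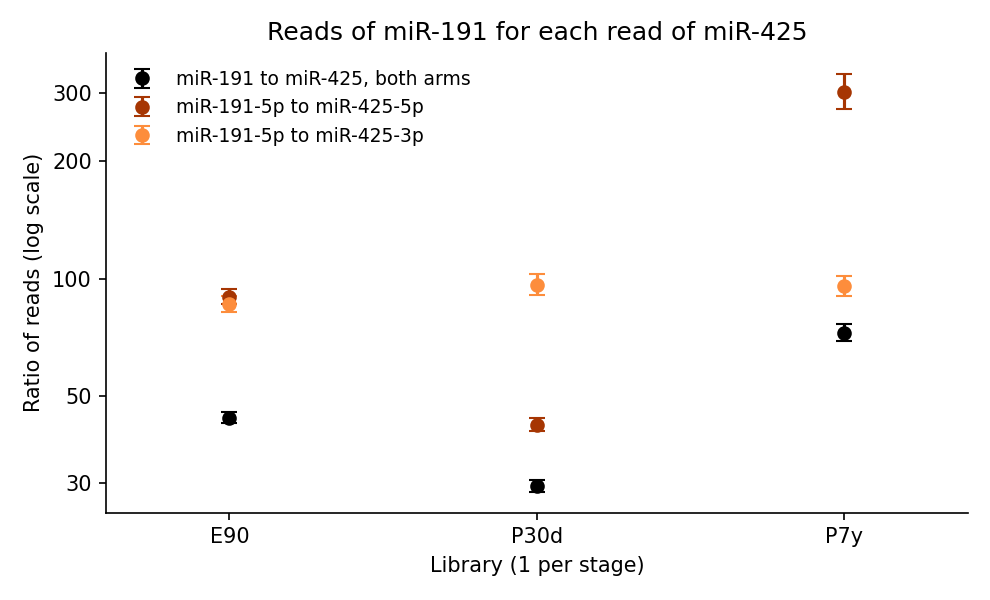
Reads of miR-191 for each read of miR-425 (log axis) in the 3 libraries, 1 per stage, for both arms together and for miR-191-5p against each arm of miR-425; bars are 95% counting intervals. The ratio to miR-425-3p stays between 86.1 and 96.6, while that to miR-425-5p runs from 42.3 at P30d to 301.6 at P7y.

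For comparison, 24 other pairs of hairpin names known from shared transcripts were described, out of 26 pairs listed, with the same minimum of reads. Reads of a name were summed over all its copies, whichever transcript they come from. The span of such a pair can thus mix transcripts, while miR-191 and miR-425 each had 1 pig hairpin. The log2 ratio of miR-191 to miR-425 spanned 1.31 over the 3 libraries. The median span of the other pairs was 1.84, and 7 of the 24 had a smaller span. It ran from 0.62 for miR-23a and miR-27a to 3.59 for miR-424 and miR-503. With 1 arm per hairpin, the one with more reads over the 3 libraries together, miR-425 was counted by its 5p arm, although its 3p arm led at P7y. The span of miR-191 and miR-425 was then 2.83 and the median of the others 2.08, with 18 of the 24 smaller. For miR-191-5p and miR-425-3p alone the span was 0.17. The place of this pair among the others thus differed with the arms counted.

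By likeness of profile, miR-425-3p stood nearer to miR-191-5p than miR-425-5p did. Likeness was measured as the Euclidean distance between log2 CPM, centred over the 3 libraries, to each of 177 other miRNAs whose mean reached 100 CPM. The 5 nearest to miR-191-5p were miR-199b-5p (distance 0.05), miR-27b-3p (0.08), miR-2904-5p (0.11), miR-339-5p (0.11) and miR-425-3p (0.13). miR-27b-3p, for example, had 16288 CPM (E90), 25661 (P30d) and 10613 (P7y). miR-425-5p stood 112th, at a distance of 2.02. The 5 nearest to miR-425-5p were miR-15b-5p (0.40), miR-32-5p (0.64), miR-335-5p (0.66), miR-2320-5p (0.73) and miR-30c-5p (0.78). miR-15b-5p had 165, 472 and 38.5 CPM. With 3 libraries such distances are a description only.

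Because miR-191-5p and miR-425-5p serve as references in quantitative PCR, they were set beside 23 other miRNAs used in that way, and all 25 were measured. From E90 to P30d, 10 of the 25 were called higher and 6 lower, against the 33.3% and 35.5% of all miRNAs given above. From P30d to P7y 3 were called higher and 16 lower, against 13.6% and 55.9% of all miRNAs. From E90 to P7y 3 were called higher and 15 lower, against 12% and 50.6%. The median log2 ratio of the list was 0.01, -1.47 and -1.38, and that of all 324 miRNAs was -0.11, -1.36 and -1.04. TMM factors gave 5 higher and 7 lower from P30d to P7y, and 7 lower from E90 to P7y.

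By CPM, miR-191-5p spanned 1.34 on the log2 scale over the 3 libraries, or 2.53-fold, the fourth smallest span of the 25. With TMM and DESeq2 scaling its span was 0.54 and 0.61, the second smallest in both, after miR-30e-5p at 0.41 and 0.38. By CPM, smaller spans were those of miR-92a-3p at 0.68, miR-151-5p at 1.25 and miR-151-3p at 1.28. miR-92a-3p, a member of the miR-17-92 cluster, had 14799.6 CPM (E90), 10771 (P30d) and 9267 (P7y). miR-425-5p spanned 4.17, or 18.04-fold, the largest but one by CPM, after miR-17-5p at 4.36, and 3.10 and 3.13 with TMM and DESeq2 scaling, where it ranked 22nd of the 25. Among the other members, also by CPM, whose mean reached 1000 CPM were miR-30e-5p (1.43), miR-25-3p (1.48), miR-24-3p (1.49) and let-7g-5p (1.75). Wider spans among them were those of let-7a-5p (2.22), miR-26a-5p (2.37), miR-103-3p (2.95) and miR-186-5p (3.001). miR-320-3p (3.17), miR-30c-5p (3.20) and miR-16-5p (3.29) were the widest.

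Of the leukocyte markers, miR-142 had 569.6 CPM (E90), 3145 (P30d) and 713.8 (P7y), and miR-146a had 56.8, 1150.4 and 169. Both were highest at P30d, as were miR-425-5p and miR-191-5p. miR-223, a miRNA of myeloid cells, was lowest at P30d, with 313, 51.3 and 84.6 CPM. A peak at P30d was not particular to leukocyte markers. The hepatocyte hairpin miR-122 had 128084, 215049 and 37891 CPM, and miR-802, miR-199a and miR-214 were also highest at P30d. By contrast, miR-194, miR-148a, miR-101 and miR-143 were lowest there. The part of hepatocyte, leukocyte or mesenchymal content in the levels of the cluster was not tested.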

How the data were processed

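Small RNA of 14 to 40 nt from liver was sequenced on a Genome Analyzer II, per the labels' protocols, and libraries were grouped by the stage in their labels. Each library has 1 deposited table, in which a line is a hairpin arm. The deposited reads per arm are expected counts, because the authors split a read among the hairpins it maps to. The deposited numbers of copies of each representative read are counts. The build, per the submitters' processing notes, is Sscrofa10.2. The aligner, miRBase release and mismatch limit: not given in the sources used here.

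Expected counts were summed per mature miRNA and rounded. Of 1007 names, 17 were merged, since 1 shared representative read (at least 18 nt) made up more than 50% of each, and 14 rounded to 0. CPM used the reads of known hairpins as total. Log2 ratios have exact conditional binomial intervals. For the arm balance, 0.5 was added to the 5p and the 3p reads before the log2 of their ratio was taken. Intervals of shares are exact at the 95% level, and no p-values are given with 1 library per stage. A count of 0 was taken to allow 3 reads. The scripts were tested on simulated data.

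The members and lists were chosen with earlier results of these data known. Named miRNAs were the 4 arms, the 5 nearest to each 5p arm, reference miRNAs whose mean reached 1000 CPM, the co-transcribed pairs with the smallest and largest span, miRNAs that share a seed with a member, and miR-122-5p. Hairpins with lettered copies were counted with their letter-free name in pairs and marker lists, a choice made after the names were seen. The other marker lists were endothelial (miR-126, 13298 CPM (E90), 11886 (P30d) and 13568 (P7y)), hepatocyte (6 hairpins, 407300, 387893 and 424062 CPM) and biliary and epithelial (5 hairpins, 760.2, 359.6 and 224 CPM). These sums join hairpins that went opposite ways. Of the hepatocyte list, miR-101 had 65404, 5524 and 119994 CPM and miR-122 had 128084, 215049 and 37891. Of the epithelial list, miR-200b and miR-429 were highest at E90, and miR-200a, miR-200c and miR-141 at P30d. Alternatives were other scalings (edgeR 4.0.16, DESeq2 1.42.0), totals, filters, read sets, hairpin sets and added values. R 4.3.3 ran edgeR and DESeq2, and Python 3.11.15 the rest (SciPy 1.17.1, NumPy 2.4.6, pandas 2.3.3, matplotlib 3.10.9).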

Additional observations from a re-analysis of the deposited data

How the results depend on the processing

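With 1 library per stage no library could be left out. No paired analysis was possible because each stage has 1 library. The level of miR-425-5p kept its direction and its call in 24 of 24 values under other scalings, read sets and hairpin sets, as did the arm balance of miR-425 in 15 of 15 and the ratio of miR-191-5p to miR-425-5p in 12 of 12. Not all of these values are separate checks. Those from copies of the representative read compare reads of miR-425-5p that differed in length between the libraries. Neither 5p arm had a line outside the pig hairpins, so limits on the hairpins repeated the ratio of the 5p arms exactly. Dropping those lines also repeated the level of miR-425-5p. For the arm balance such limits removed at most 1 read, and adding 1 to each arm barely moved it. The cause of the changes that follow was not tested. With TMM factors and DESeq2 size factors, the log2 ratio of miR-191-5p was -0.26 and -0.29 from P30d to P7y, past no threshold, and turned to 0.27 and 0.31 from E90 to P7y. That of miR-425-3p was -0.25 and -0.28, and turned to 0.12 and 0.16. For miR-191-3p the same factors gave 1.05 and 1.03 from P30d to P7y, both past the threshold, and 0.11 and 0.16 from E90 to P7y. A total without the 7 most abundant miRNAs (the 5 of each library) gave miR-191-3p 0.30 from P30d to P7y, and a total with predicted hairpins 0.035.

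Reads without a mismatch turned miR-425-3p to -0.23 from E90 to P30d and took it to -1.29, past the threshold, from E90 to P7y. They also made calls of miR-191-3p from E90 to P30d (-1.06) and from E90 to P7y (-1.15), as did copies of the representative read (-2.35 and -2.40). These copies gave an arm balance difference of 1.59 for miR-191 from E90 to P7y and a hairpin ratio difference of -1.29 from E90 to P30d, both past the threshold. They turned the differences of miR-191-5p to miR-425-3p to -0.098, 0.0097 and -0.089. The representative reads of all arms but miR-191-5p differed between some libraries, so values from their copies can compare unlike reads.

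Of the ratios relative to the median of all, the sign turned with no filter for miR-425-3p from E90 to P30d (-0.054) and, from E90 to P7y, for miR-191-5p (-0.63), miR-191-3p (-0.79) and miR-425-3p (-0.79). With a mean of 100 CPM or more it turned from P30d to P7y for miR-191-5p (-0.19) and miR-425-3p (-0.18), and from E90 to P7y for miR-191-3p (-0.023) and miR-425-3p (-0.017).

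Of the reference miRNAs, both factors called 5 higher and 7 lower from P30d to P7y, against 3 and 16, and 7 lower from E90 to P7y, against 15. Of all 324 miRNAs, TMM factors called 90 higher and 109 lower from P30d to P7y, against 44 and 181, and 90 and 108 from E90 to P7y, against 39 and 164. DESeq2 size factors gave 90 and 111, and 91 and 108. Depth limits miR-191-3p most, with 66 reads at P30d. The spans of reference miRNAs under both factors, and that of miR-191-5p with miR-425-3p alone, were computed after seeing the data.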

Other observations

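The naming rule also found 3 lines outside the pig hairpins. At E90, 2 lines named for the gorilla hairpin of miR-191 held 2.5 and 1.5 expected reads. Their representative read, cCCACGGCtggacagcggg, with bases 2 to 8 in capitals, was labelled as a 3p read but overlaps the bases just upstream of the 5p arm in the pig hairpin. At P30d, 1 line named for the rat hairpin of miR-425 held 1 read. Without these lines the log2 differences in arm balance of miR-425 were 1.26, -2.85 and -1.59, and those of miR-191 were 1.45, -1.31 and 0.14. The log2 ratio of miR-191-3p was then -0.85 from E90 to P30d and -0.87 from E90 to P7y. The other E90 line of miR-191-3p, with 304 reads, was named for the human hairpin but matched the pig hairpin from position 60.

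By all reads, the 3p arms of both hairpins stood in a similar ratio in the fetal and the oldest library. There were 0.156 reads of miR-191-3p for each read of miR-425-3p at E90 and 0.156 at P7y, with a log2 difference of -0.01 [-0.30, 0.29]. At P30d there were 0.0631, lower than at E90 by a log2 difference of -1.31 [-1.73, -0.90]. This ratio was not computed for other read sets. From E90 to P7y, copies of the representative read gave log2 ratios of CPM of -2.40 for miR-191-3p and -0.71 for miR-425-3p, so the similarity depends on the reads counted. Both representative reads differed between these libraries.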
